A study of Mus musculus with 6 samples.

Results

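Hox genes encode homeodomain transcription factors that give cells their position along the head-to-tail axis. The genes analysed were 38 of the 39 annotated Hox genes in the 4 mouse Hox clusters, taken by gene name from the 25576 genes with a level above 0 in at least 1 library. The remaining Hox gene was not analysed here. The study sequenced total RNA of whole spinal cord from Taiwanese mice, a severe type I model of spinal muscular atrophy (SMA), at postnatal day 4. Ribosomal RNA had been removed and the libraries kept the strand of each RNA. The SMA group carried mSmn-/-, hSMN22tg/0 and the control group mSmn+/-, hSMN22tg/0, both on the FVB strain. The human SMN2 transgene was therefore present in both groups, and the controls were heterozygous for the targeted mouse gene and not wild type. Each group had 3 libraries, for which the methods of the study give n = 1 in each group, so it is not known whether the replicates are separate animals.

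Within a cluster, the genes lie in the order in which they are switched on along the body, so that low-numbered paralogue groups mark the hindbrain and neck and high-numbered groups the lumbar cord, sacrum and tail. A paralogue group is the set of genes that hold the same place in each cluster. In the spinal cord, combinations of Hox proteins set which motor columns and motor pools form at each level, and many Hox genes remain transcribed in neurons after birth.

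Levels are given in FPKM, the fragments of a gene divided by its exon length and by all mapped fragments of the library, which allows levels of different genes to be compared. Values are listed in replicate order, first for the libraries labelled control and then for those labelled SMA. In the control libraries 21418, 22161 and 21197 genes had a level above 0, and in the SMA libraries 22237, 22201 and 22296. The absolute read depth is unknown because the deposited values are not counts. Genes under 0.15 FPKM in both libraries of a pair were used to estimate relative depth, by the ratio found most often between them. Relative to SMA replicate 1 it was 1.16, 1.09 and 1.03 in the control libraries and 1.01 and 1.01 in SMA replicates 2 and 3. This estimate is rough, as that ratio held at most 32 of 1506 genes, and relative to SMA replicate 3 it was 1.09 for control replicate 3. Smn1, the gene targeted in these mice, was at 10.4, 8.64 and 11.9 FPKM in the control and 8.48, 9.296 and 11.1 FPKM in the SMA libraries. The groups overlapped (log2 fold change -0.09, standard error 0.15, limma adjusted p = 0.819; exact two-sided permutation test, p = 0.6), so the group labels could not be checked against this gene. With 3 libraries against 3, the smallest two-sided exact permutation p is 0.1, and the p-values and SDs measure spread between these libraries.

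The labelled tissue was checked against marker genes. All 18 pan-neuronal markers were listed, with summed levels of 4069.8, 2889.8 and 4497 FPKM in the control and 4265, 4423 and 4489 FPKM in the SMA libraries and Meg3 the most abundant. Chat, which encodes the enzyme that makes acetylcholine in motor neurons, was at 1.76, 1.53 and 3.06 FPKM in the control and 1.97, 2.68 and 2.59 FPKM in the SMA libraries. Neuronal and motor neuron markers were thus present in each library. Of 16 forebrain and midbrain markers, Emx1, Emx2 and Otx2 were not listed in any library. Neurod6 was the most abundant gene of that list, which summed to 11.9, 7.04 and 11.8 FPKM in the control and 13.6, 13.6 and 13.8 FPKM in the SMA libraries.

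Control replicate 2 stood apart from the other libraries. Its correlation with them, over the log2(FPKM + 1) values of 17088 genes, which are not independent replicates, was 0.836 to 0.849, and the other 5 libraries correlated with each other at 0.983 to 0.992. Alb, the serum albumin gene of hepatocytes, was at 44.6, 15894 and 30.7 FPKM in the control and 24.6, 56.2 and 30.5 FPKM in the SMA libraries. The 17 hepatocyte markers, all listed and led by Alb, summed to 82.6, 28696 and 56.0 FPKM in the control and 47.2, 104 and 55.9 FPKM in the SMA libraries. This library also had the lowest pan-neuronal sum. Hox levels are given library by library, and the comparison of groups and the spread between controls are given also without control replicate 2.

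Hox transcripts covered most of the axis represented in the cord, as the plot of Hox levels by cluster shows. The 38 genes comprised 10 of the Hoxa cluster on chromosome 6, 10 of the Hoxb cluster on chromosome 11, 9 of the Hoxc cluster on chromosome 15 and 9 of the Hoxd cluster on chromosome 2. By mean level, 20 genes were at 10 FPKM or more, 12 from 1 to under 10 FPKM and 6 under 1 FPKM. Across the 6 libraries, 30 genes were above 0 in each and 8 were at 0 in at least 1. The low genes sat at both ends of the numbered series, in paralogue groups 1, 12 and 13.

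**Figure D1:**
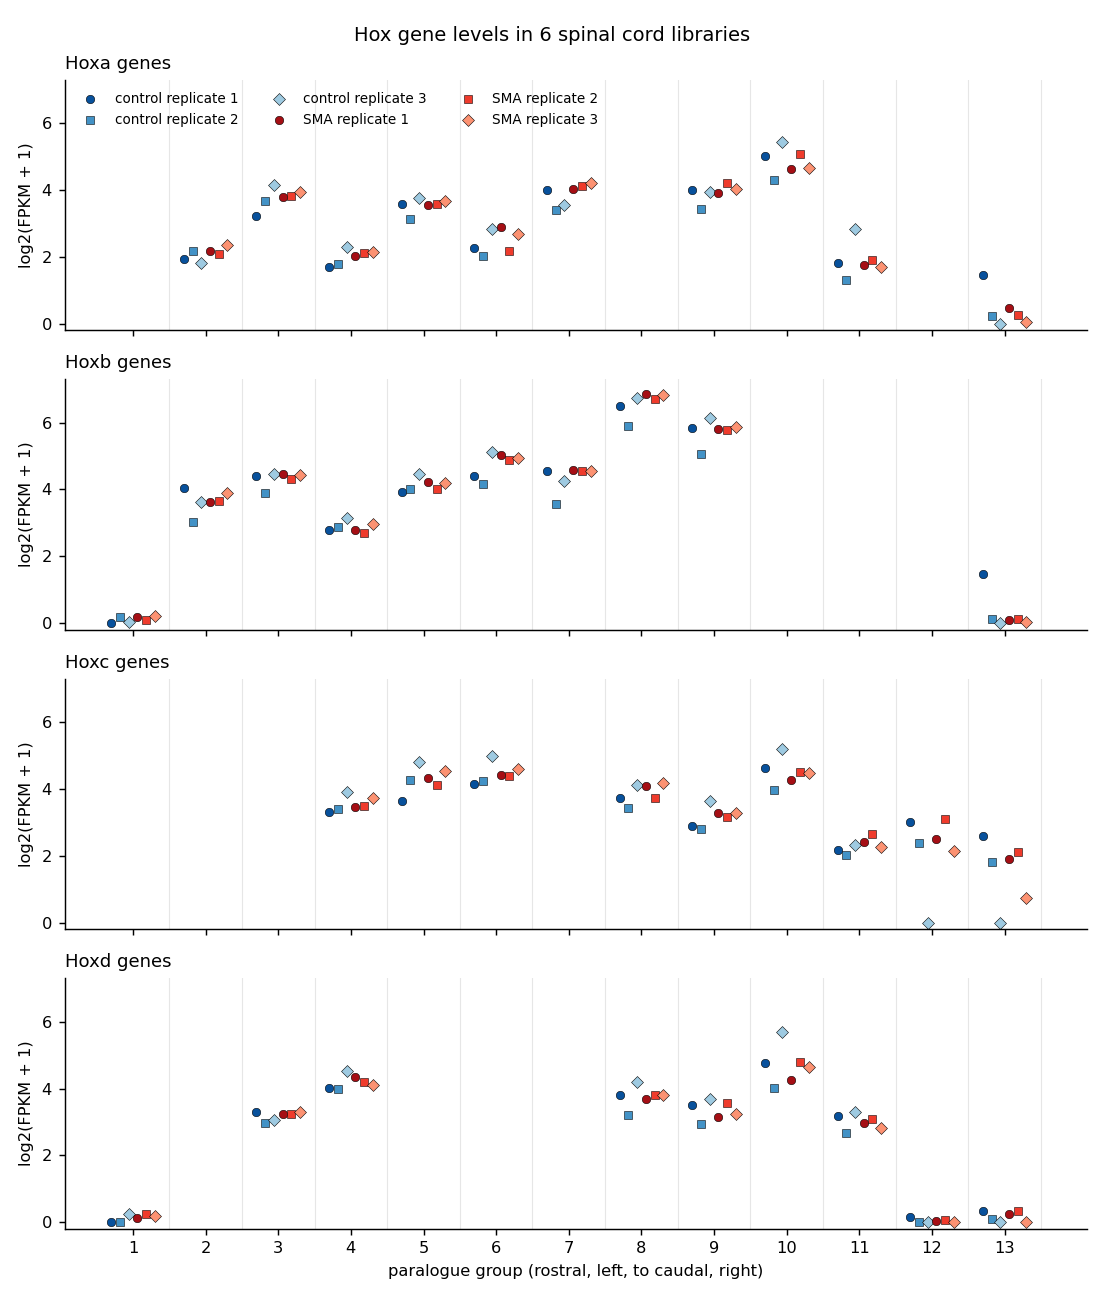
Level of each of the 38 Hox genes on the log2(FPKM + 1) scale (vertical axis) against its paralogue group (horizontal axis), with a panel for each cluster and a point for each library, blue for control and red for SMA. Hoxb8 is the highest point in each library, at 89.4, 59.0 and 105 FPKM in control and 116, 104 and 113 FPKM in SMA libraries, and the 6 genes with means under 1 FPKM are in groups 1, 12 and 13.

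Hoxb8 was the most abundant Hox gene. It is required for normal grooming and for sensory neurons of the dorsal horn. Hoxb8 (ENSMUSG00000056648; chromosome 11, 96281905 to 96285315, plus strand) was at 89.4, 59.0 and 105 FPKM in the control and 116, 104 and 113 FPKM in the SMA libraries. The lowest value was in control replicate 2, and the groups overlapped because control replicate 3 lay between SMA replicates 1 and 2. Its neighbour Hoxb9, which acts in the thoracic region, was next at 55.9, 32.7 and 69.2 FPKM in the control and 55.6, 54.4 and 58.0 FPKM in the SMA libraries. For Hoxb9 the highest and the lowest library were both controls, and the 3 SMA libraries lay between them.

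The genes of paralogue group 10, which give motor neurons of the lumbar cord their limb-level identity and suppress ribs on the lumbar vertebrae, were among the 6 most abundant Hox genes. Hoxa10 was at 31.7, 18.5 and 42.6 FPKM in the control and 23.8, 33.0 and 24.2 FPKM in the SMA libraries. Hoxd10 was at 26.1, 15.1 and 50.7 FPKM in the control and 18.2, 27.0 and 24.0 FPKM in the SMA libraries. Hoxc10 was at 23.7, 14.6 and 35.9 FPKM in the control and 18.2, 21.8 and 21.1 FPKM in the SMA libraries. All 3 genes were highest in control replicate 3 and lowest in control replicate 2, so the SMA libraries fell inside the control range. Hoxc10 and Hoxd10, and Hoxa2, Hoxa3, Hoxa4, Hoxa11 and Hoxc9 further on, are given by library as genes chosen after their values were seen.

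The homeobox is the part of each gene that encodes the DNA-binding domain. Its last 60 bases, which encode the recognition helix and the residues after it, are shown for the genes on which the results turn, so that the likeness of group 10 genes can be read beside Hoxb8 and the group 12 and 13 genes. A homeobox was found in all 38 genes. Among the 40 pairs from the same paralogue group, a median of 80.6% of homeobox bases were identical (67.2% to 93.9%), against 60.6% (46.1% to 88.9%) in the 663 pairs from different groups. Pairs from the same cluster had a median of 61.7%. Over whole protein-coding transcripts, and not the homeobox alone, the longest exact run shared by a pair of the same group was 50 bases. The median longest run was 17 bases. The sequences are from GENCODE M21 on GRCm38, read 5′ to 3′ on the coding strand from exon 2 of 2. Capitals mark bases that differ from Hoxb8 at the same place.
Hoxb8: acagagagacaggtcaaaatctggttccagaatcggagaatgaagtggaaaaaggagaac
Hoxa10: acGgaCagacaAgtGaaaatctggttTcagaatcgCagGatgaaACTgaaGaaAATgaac
Hoxc10: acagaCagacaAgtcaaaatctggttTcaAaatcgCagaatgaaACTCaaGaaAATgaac
Hoxd10: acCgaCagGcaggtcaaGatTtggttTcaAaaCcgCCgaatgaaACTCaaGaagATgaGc
Hoxc12: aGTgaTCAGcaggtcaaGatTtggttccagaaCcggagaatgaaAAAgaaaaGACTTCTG
Hoxc13: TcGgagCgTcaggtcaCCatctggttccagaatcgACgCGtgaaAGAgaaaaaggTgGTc
These stretches lie at chr11:96284294-96284353, plus strand (Hoxb8), chr6:52232554-52232613, minus strand (Hoxa10), chr15:102970968-102971027, plus strand (Hoxc10), chr2:74694261-74694320, plus strand (Hoxd10), chr15:102938428-102938487, plus strand (Hoxc12) and chr15:102927330-102927389, plus strand (Hoxc13). Compared with Hoxb8, 14 bases differed in Hoxa10, 13 in Hoxc10, 18 in Hoxd10, 20 in Hoxc12 and 16 in Hoxc13.

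Promoter sequence was available from RefSeq (GRCm38.p6) for 22 of the 38 genes, as 24 stretches of the 250 bases before a start. Both strands were searched, and matches were allowed to overlap, for TTTATG, which Cdx and group 9 to 13 Hox proteins can bind, TGATTNAT, bound by Hox proteins with TALE partners, TATAAA, the TATA box, and GGGCGG, the GC box. The promoters of Hoxb8, the most abundant gene, of Hoxd10, and of Hoxa13, which was high in a single library, overlap no annotated exon and are shown with the matches in capitals, those on the other strand as their reverse complement.
Hoxb8: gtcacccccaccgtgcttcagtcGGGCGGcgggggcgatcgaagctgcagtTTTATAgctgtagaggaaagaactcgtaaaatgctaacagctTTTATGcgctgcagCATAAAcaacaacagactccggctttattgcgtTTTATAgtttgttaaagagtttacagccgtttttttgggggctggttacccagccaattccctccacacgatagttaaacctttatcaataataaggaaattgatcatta
Hoxd10: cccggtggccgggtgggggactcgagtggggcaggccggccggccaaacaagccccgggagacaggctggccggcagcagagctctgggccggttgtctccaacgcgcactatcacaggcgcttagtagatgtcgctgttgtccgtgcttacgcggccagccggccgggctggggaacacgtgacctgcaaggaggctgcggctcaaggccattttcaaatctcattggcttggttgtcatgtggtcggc
Hoxa13: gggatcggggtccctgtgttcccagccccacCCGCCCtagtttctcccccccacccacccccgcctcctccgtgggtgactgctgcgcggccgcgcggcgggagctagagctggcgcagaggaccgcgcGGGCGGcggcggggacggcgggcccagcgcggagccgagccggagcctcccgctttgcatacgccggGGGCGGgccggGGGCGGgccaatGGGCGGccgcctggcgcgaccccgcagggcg
They lie at chr11:96281655-96281904, plus strand (Hoxb8), chr2:74691641-74691890, plus strand (Hoxd10) and chr6:52260881-52261130, minus strand (Hoxa13). The Hoxb8 stretch held 2 matches to TTTATG, 2 to TATAAA and 1 to GGGCGG, the Hoxd10 stretch held none of the searched letters, and the Hoxa13 stretch held 5 matches to GGGCGG. Among 32841 promoters of the same length, 10.8% held TTTATG, 2.83% TGATTNAT, 12.4% TATAAA and 32.7% GGGCGG. With stretches for only 22 of the 38 genes, a check of motifs or GC content over the whole family is void and none is given. A match describes the letters in the window and not a bound site.

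The rostral groups were represented by group 2 and 3 genes and hardly by group 1. Hoxb1, which sets the identity of a hindbrain segment that forms facial motor neurons, was at 0, 0.123 and 0.0241 FPKM in the control and 0.130, 0.0761 and 0.160 FPKM in the SMA libraries. Hoxd1 was the more abundant of the 2 group 1 genes, at 0, 0 and 0.183 FPKM in the control and 0.0950, 0.192 and 0.146 FPKM in the SMA libraries. Both genes were at or near 0 throughout. Hoxb2, a hindbrain segment gene, was at 15.3, 7.18 and 11.4 FPKM in the control and 11.3, 11.7 and 13.9 FPKM in the SMA libraries. Hoxa2, which patterns the hindbrain and the neural crest of the second arch, was lower, at 2.81, 3.47 and 2.50 FPKM in the control and 3.49, 3.23 and 4.13 FPKM in the SMA libraries. For Hoxb2 the control libraries spanned the SMA range, whereas Hoxa2 was highest in SMA replicate 3 and lowest in control replicate 3. Hoxb3 led group 3, whose genes act in the caudal hindbrain, at 20.1, 13.7 and 20.9 FPKM in the control and 21.2, 18.9 and 20.4 FPKM in the SMA libraries. Hoxa3, needed for the thymus and parathyroid glands, was at 8.29, 11.6 and 16.8 FPKM in the control and 12.8, 13.2 and 14.4 FPKM in the SMA libraries. The groups overlapped for both, with control replicate 2 lowest for Hoxb3 and control replicate 1 lowest for Hoxa3. Hoxd3 had a mean of 8.07 FPKM and the narrowest range of the genes listed in all libraries, 1.32-fold from lowest to highest.

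Groups 4 to 7, which mark the cervical to upper thoracic cord, held 12 genes, each above 0 in every library. Hoxd4 led group 4 at 15.3, 14.8 and 21.8 FPKM in the control and 19.3, 17.3 and 16.2 FPKM in the SMA libraries. Hoxa4 was at 2.21, 2.44 and 3.90 FPKM in the control and 3.03, 3.32 and 3.44 FPKM in the SMA libraries. Control replicate 3 was the highest library for both, above each SMA library, and control replicates 1 and 2 were below each SMA library. Hoxc5, which with Hoxa5 maintains the phrenic motor neurons that drive breathing, led group 5 at 11.6, 18.4 and 26.8 FPKM in the control and 18.9, 16.3 and 22.1 FPKM in the SMA libraries. Its SMA values lay inside the control range, which ran from control replicate 1 to control replicate 3. Hoxb6 led group 6 at 20.03, 17.1 and 33.6 FPKM in the control and 31.7, 28.7 and 29.7 FPKM in the SMA libraries. Control replicates 1 and 2 were below the 3 SMA libraries and control replicate 3 was above them. Hoxb7 led group 7 at 22.6, 10.8 and 18.0 FPKM in the control and 23.1, 22.3 and 22.5 FPKM in the SMA libraries. The 3 SMA libraries were close together, control replicate 1 lay among them, and control replicate 2 was the lowest. The remaining genes of these groups had means of 10.8 FPKM for Hoxa5, 4.72 for Hoxa6, 6.41 for Hoxb4, 16.8 for Hoxb5, 10.8 for Hoxc4 and 21.6 for Hoxc6, a gene of the forelimb motor column.

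Hoxa7, which patterns thoracic vertebrae, was the 1 tested Hox gene whose groups did not overlap in the deposited FPKM values of all 6 libraries. It was at 15.1, 9.61 and 10.7 FPKM in the control and 15.3, 16.3 and 17.6 FPKM in the SMA libraries. Each SMA library was above each control library, although SMA replicate 1 was only just above control replicate 1. The other genes of groups 8 and 9 besides Hoxb8 and Hoxb9 had means of 13.96 FPKM for Hoxc8, which acts in forelimb motor pools, 12.7 for Hoxd8, 14.3 for Hoxa9 and 9.33 for Hoxd9. Hoxc9, which sets thoracic motor columns and represses the forelimb program, was at 6.45, 6.04 and 11.5 FPKM in the control and 8.67, 7.93 and 8.64 FPKM in the SMA libraries. It was highest in control replicate 3 and lowest in control replicate 2.

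Group 11 genes, which pattern the sacral vertebrae, the forearm and the kidney, were less abundant than group 10. Hoxd11 led at 7.95, 5.34 and 8.82 FPKM in the control and 6.87, 7.57 and 6.08 FPKM in the SMA libraries. Hoxa11 had the widest range of the genes listed in all libraries, 4.13-fold, at 2.49, 1.48 and 6.12 FPKM in the control and 2.40, 2.71 and 2.22 FPKM in the SMA libraries. Control replicate 3 was the highest library for both genes and control replicate 2 the lowest. Hoxc11 had a mean of 4.02 FPKM.

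Groups 12 and 13, the most caudal in the numbered order, differed between libraries more than between the labelled groups. Hoxc12 was at 7.06, 4.22 and 0 FPKM in the control and 4.61, 7.505 and 3.46 FPKM in the SMA libraries. Hoxc13, which is needed for hair and nails, was at 4.97, 2.55 and 0 FPKM in the control and 2.76, 3.35 and 0.669 FPKM in the SMA libraries. Both were absent from the values of control replicate 3, and so set to 0, and above 0 in the other 5 libraries. Hoxa13, a gene of digits and the urogenital tract, was at 1.73, 0.170 and 0 FPKM in the control and 0.373, 0.186 and 0.0276 FPKM in the SMA libraries. Hoxb13, which limits the length of the tail, was at 1.75, 0.0843 and 0 FPKM in the control and 0.0611, 0.0914 and 0.0313 FPKM in the SMA libraries. Hoxa13 and Hoxb13 were above 1 FPKM in control replicate 1 and below it in the other 5 libraries. Hoxd13, another digit gene, was at 0.268, 0.0566 and 0 FPKM in the control and 0.191, 0.246 and 0 FPKM in the SMA libraries. Hoxd12 was at 0.102, 0 and 0 FPKM in the control and 0.0250, 0.0512 and 0 FPKM in the SMA libraries. Control replicate 3 had all 6 genes of groups 12 and 13 at 0, and control replicate 1 was the highest library for 5 of the 6, as the plot of groups 10 to 13 shows.

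**Figure D2:**
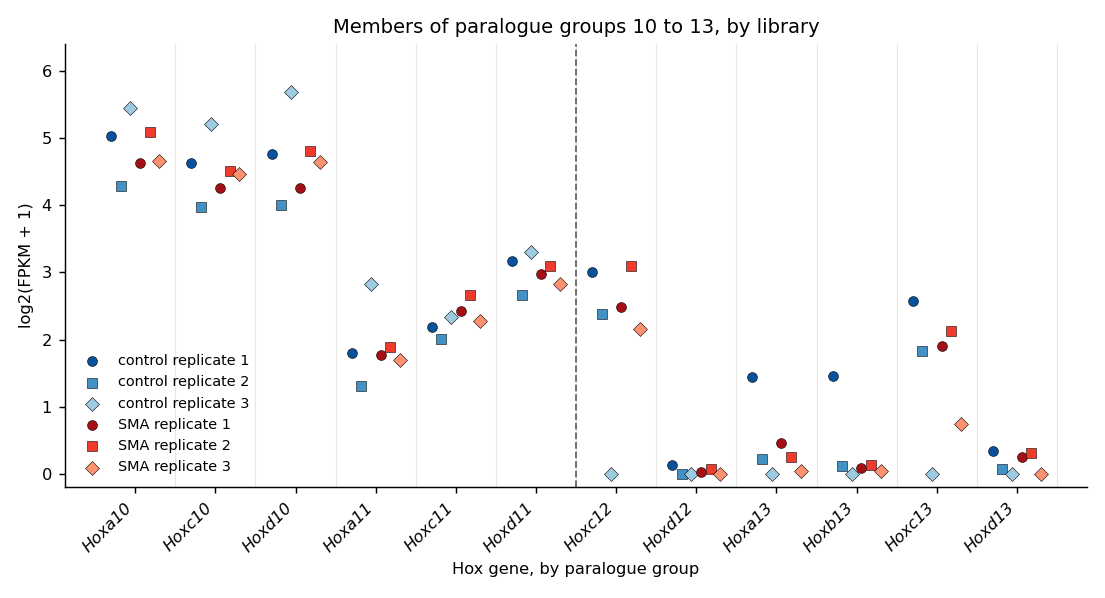
Level of the 12 Hox genes of paralogue groups 10 to 13 on the log2(FPKM + 1) scale (vertical axis), by gene (horizontal axis), with a point for each library, blue for control and red for SMA; the dashed line separates groups 10 and 11 from 12 and 13. Control replicate 3, the pale blue diamond, is the highest library for 5 of the 6 genes to the left of the line and at 0 for all 6 to the right.

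The same library was thus at the top of the range for one set of caudal genes and at the bottom for the next. Summed over groups 10 and 11, the level was 95.4, 58.1 and 148 FPKM in the control and 73.7, 97.4 and 81.5 FPKM in the SMA libraries. Over groups 12 and 13 the sum was 15.9, 7.08 and 0 FPKM in the control and 8.02, 11.4 and 4.18 FPKM in the SMA libraries. The means for groups 12 and 13 were 7.66 ± 7.96 FPKM (SD, n = 3) in control and 7.88 ± 3.63 FPKM (SD, n = 3) in SMA libraries, and without control replicate 2 the control mean was 7.94 ± 11.2 FPKM (SD, n = 2). Control replicate 3 had the highest sum for groups 10 and 11, and it was the only library at 0 for groups 12 and 13. Relative to control replicate 1, its summed level was 1.47-fold in group 4, 1.64-fold in group 5, 1.74-fold in group 6, 1.59-fold in group 10 and 1.36-fold in group 11. In group 2 the ratio was 0.768 and in group 7 it was 0.762. The difference between these controls therefore did not run in a single direction along the numbered groups.

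A value of 0 in control replicate 3 with at least 0.5 FPKM in the other 5 libraries was met by 15 genes of all kinds, of which Hoxc12 and Hoxc13 were 2. The same count was 4 in control replicate 1, 4 in control replicate 2, 0 in SMA replicate 1, 0 in SMA replicate 2 and 4 in SMA replicate 3, with no Hox gene among them. The estimated relative depth of control replicate 3 was 1.03. Hoxc12 and Hoxc13 lie next to each other in the Hoxc cluster. Cdx1 and Cdx4, direct activators of caudal Hox genes in the embryo, were near 0 in all libraries, and Cdx2 was not listed. Marker lists of tissues near the end of the cord are given with the summed levels further on, and their part in the 0 values was not tested.

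Summed over all 38 genes, the Hox level was 516, 373 and 660.0 FPKM in the control and 551, 554 and 569 FPKM in the SMA libraries. The mean was 516 ± 143 FPKM (SD, n = 3) in control and 558 ± 9.77 FPKM (SD, n = 3) in SMA libraries, so the controls spread more widely than the SMA libraries. The control mean without control replicate 2 was 588 ± 102 FPKM (SD, n = 2). Against the summed pan-neuronal markers, the Hox sum was 12.7, 12.9 and 14.7% in the control and 12.9, 12.5 and 12.7% in the SMA libraries. On this ratio, control replicate 1 and control replicate 2 both lay within the range of the SMA libraries, and control replicate 3 was the highest. In whole tissue, fewer cells of a type and less RNA per cell cannot be told apart.

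The Hoxb cluster supplied the largest part of the Hox sum. Its share was 47.5, 43.5 and 43.4% in the control and 51.2, 47.05 and 49.5% in the SMA libraries. The shares of the Hoxc cluster were 18.5, 23.0 and 21.1% in the control and 18.8, 18.9 and 19.8% in the SMA libraries, and the means of the Hoxa and Hoxd clusters were 17.8% and 15.1%. By paralogue group, group 8 had the largest mean share at 23.0%, followed by group 9 at 16.0% and group 10 at 14.4%. The share of group 10 was 15.8, 12.9 and 19.6% in the control and 10.9, 14.8 and 12.2% in the SMA libraries. It was highest in control replicate 3 and lowest in SMA replicate 1, with overlapping groups. The share of group 8 was 22.2, 20.6 and 20.97% in the control and 26.1, 23.3 and 25.1% in the SMA libraries. For group 8 the 3 SMA libraries were above the 3 controls, and the share was not tested. A share also depends on the levels of the other groups. In the summed FPKM of group 8 the groups overlapped, with control replicate 3 at 138 FPKM and SMA replicate 2 at 129 FPKM.

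**Figure D3:**
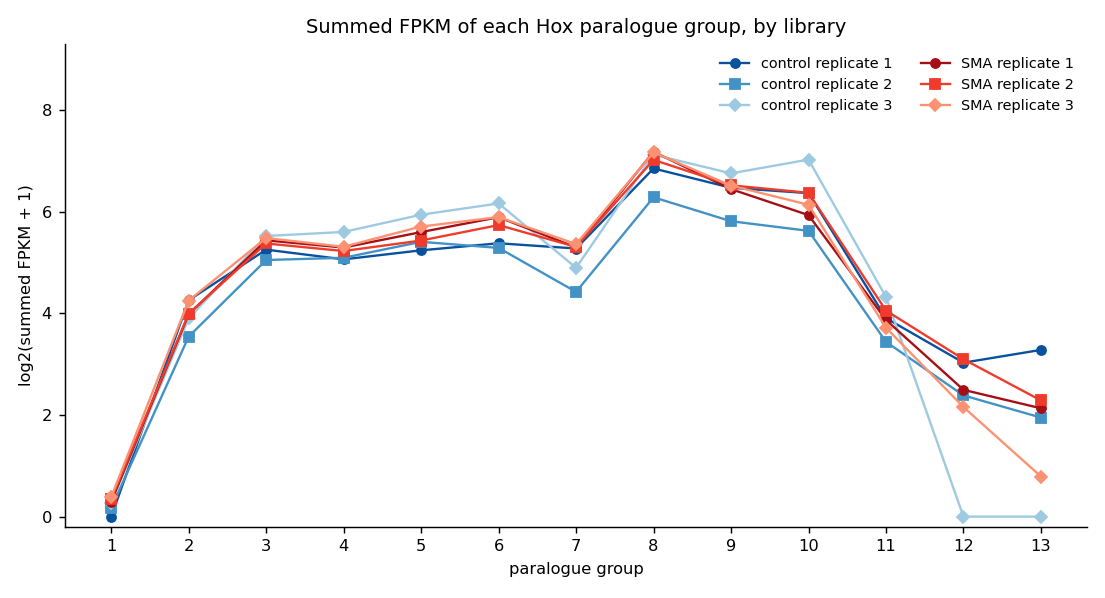
Summed level of each paralogue group, as log2(summed FPKM + 1) (vertical axis), against paralogue group (horizontal axis), with a line for each library, blue for control and red for SMA. Each line is highest at group 8, where sums run from 76.9 to 144 FPKM, and part at groups 12 and 13, where control replicate 3 is at 0.

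A caudal-minus-rostral index, the mean log2(FPKM + 1) of the 12 genes of groups 10 to 13 minus that of the 12 genes of groups 4 to 7, was -0.99, -1.50 and -1.90 in the control and -1.68, -1.36 and -1.90 in the SMA libraries. The highest value was in control replicate 1, and the lowest values, in control replicate 3 and SMA replicate 3, were equal to 2 decimals. The mean was -1.46 (SD 0.46, n = 3) in control and -1.64 (SD 0.27, n = 3) in SMA libraries, a difference of -0.18, which is smaller than the spread between replicates. Without control replicate 1 the difference was 0.06, without control replicate 2 it was -0.20 and without control replicate 3 it was -0.40. Without SMA replicate 2 it was -0.33 and without SMA replicate 3 it was -0.05. With groups 10 and 11 set against groups 4 and 5, the index was 0.31, -0.31 and 0.30 in the control and -0.14, 0.22 and -0.20 in the SMA libraries, which placed control replicate 3 with control replicate 1 at the top. With groups 12 and 13 set against groups 10 and 11, a version chosen after seeing the data, it was -2.10, -2.27 and -4.13 in the control and -2.51, -2.68 and -2.93 in the SMA libraries. The lowest library there was control replicate 3. In that version SMA minus control was 0.13, opposite in sign to the first version.

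The comparison of SMA with control libraries asks which genes differ in the spinal cord between mice labelled mSmn-/- and heterozygous mice. It was fitted with limma on log2(FPKM + 1) over the 17088 genes whose mean reached 0.5 FPKM. This minimum left 32 Hox genes; Hoxa13, Hoxb1, Hoxb13, Hoxd1, Hoxd12 and Hoxd13 were below it and not tested. No Hox gene passed an adjusted p of 0.05 in limma (0 of 32, with 0% of all genes tested), and the lowest adjusted p among them was 0.683. At an unadjusted p under 0.05, 0 Hox genes were lower in SMA, beside 2.39% of all genes tested, and 1 Hox gene was higher, beside 3.40%. By overlap of the libraries, 0 Hox genes had all SMA libraries below all controls, against 6.67% of all genes tested, and 1 had all SMA libraries above, against 10.3%. In this fit of all 6 libraries the counts were no greater than the shares of all genes would give, and they are not a result about the Hox genes. The overlap counts changed with the libraries used, and the matching values for all genes tested are given in brackets. Without control replicate 3, 11 of the 32, or 34.4%, had all SMA libraries above (20.7%), and 0 had them below (13.5%). Without control replicate 1 there were 3 above (Hoxa7, Hoxb7 and Hoxd3; 21.6%) and 0 below (2056 of 17115 genes), and without control replicate 2 there were 2 above (Hoxa2 and Hoxa7; 14.2%) and 2 below (Hoxc10 and Hoxd11; 13.9%). Without SMA replicate 1 there were 2 above (Hoxa7 and Hoxa9; 14.8%) and 0 below (11.6%), without SMA replicate 2 there were 3 above (Hoxa2, Hoxa7 and Hoxb8; 14.1%) and 0 below (8.92%), and without SMA replicate 3 there were 2 above (Hoxa7 and Hoxc11; 13.5%) and 1 below (Hoxb4; 8.74%). With libraries scaled to equal pan-neuronal levels there were 0 above (1.96%) and 5 below (Hoxa5, Hoxc10, Hoxd8, Hoxd9 and Hoxd11; 13.6%). Quantile normalization gave 2 above, Hoxa2 and Hoxa7 (1923 of 17088 genes), and 0 below (1050 of 17088 genes). On the log2(FPKM + 1) scale the fold changes of low genes are compressed towards 0.

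Hoxa7 was the gene counted as higher both times, at a log2 fold change of 0.46 with a standard error of 0.17 (limma adjusted p = 0.683). Its two-sided exact permutation p of 0.1 was the smallest that 3 libraries against 3 allow. The deposited locus of Hoxa7, chromosome 6 from 52162416 (counted from 0) to 52221854, is wider than its annotated coordinates of 52214491 to 52221854 and overlaps the deposited loci of 11 other listed genes, 5 of them Hox genes. At an unadjusted p under 0.05, no Hox gene was higher without SMA replicate 1 (0, with 1.39% of all genes), without SMA replicate 2 (0, with 1.49%) or without SMA replicate 3 (0, with 1.25%), where the log2 fold change of Hoxa7 was 0.51, 0.46 and 0.41. Without control replicate 3 it was 0.41, and with libraries scaled to equal pan-neuronal levels it was 0.22, beside -0.17 for the median of all genes, and Hoxa7 was not counted in either. Without control replicate 1, 2 genes were higher, Hoxa7 (0.64) and Hoxb7 (0.65), with 6.03% of all genes tested.

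Over the 32 tested genes, 25 had a log2 fold change above 0 and 7 below, with a median of 0.14 beside 0.04 over all genes tested. The values ran from -0.25 for Hoxd10 to 0.78 for Hoxc12, whose standard error was 0.75 and which was at 0 in control replicate 3. The median turned below 0 without control replicate 2 (-0.03, all genes 0.00). With each other library left out it stayed above 0, from 0.10 without control replicate 1 (all genes 0.06) to 0.25 without control replicate 3 (all genes 0.06). When libraries were scaled to equal pan-neuronal levels, the median of the Hox genes was -0.09 and that of all genes was -0.17. The Hox median minus that of all genes was thus 0.08, beside 0.09 without this scaling.

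**Figure D4:**
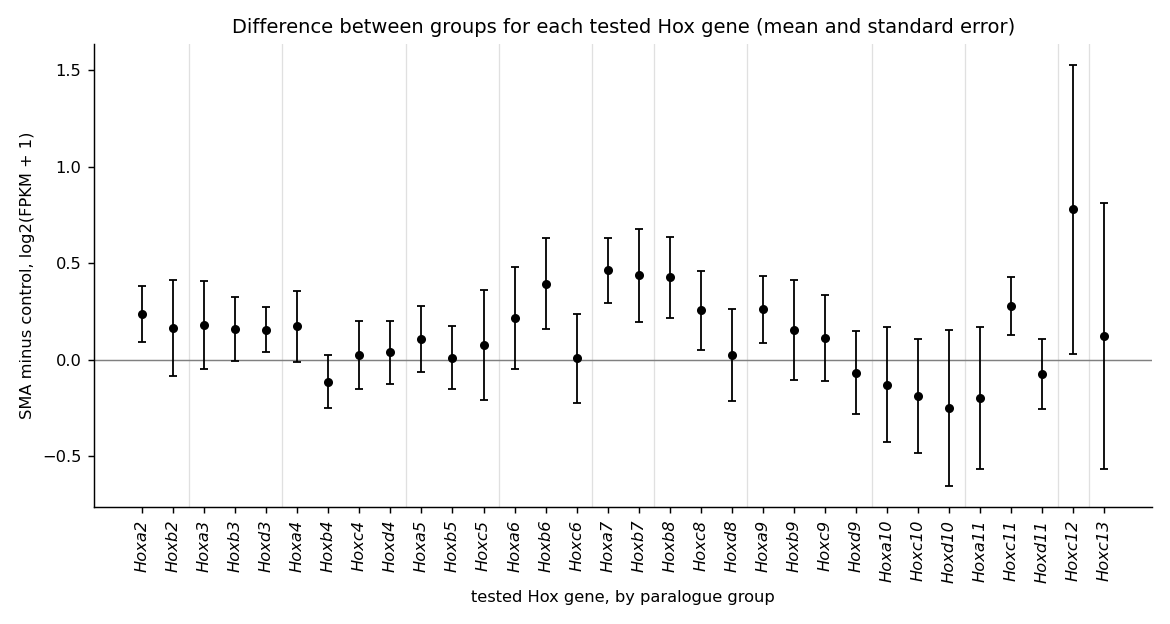
Difference between the means of SMA and control libraries on the log2(FPKM + 1) scale (vertical axis) for each of the 32 tested Hox genes in paralogue order (horizontal axis), with the limma standard error as bars. The values run from -0.25 (Hoxd10) to 0.78 (Hoxc12), and 5 of the 6 genes of groups 10 and 11 lie below 0, while all 6 were above 0 without control replicate 3.

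By position, the 5 tested genes of groups 1 to 3 had a median log2 fold change of 0.16, the 12 of groups 4 to 7 one of 0.09, and the 7 of groups 8 and 9 one of 0.15. The 6 genes of groups 10 and 11 had a median of -0.16, with 5 below 0 and Hoxc11 above. The 2 tested genes of groups 12 and 13, both at 0 in control replicate 3, had a median of 0.45. In the same order of positions, the medians without control replicate 2 were 0.08, -0.002, -0.04, -0.48 and 0.69, and without control replicate 3 they were 0.20, 0.31, 0.38, 0.16 and -0.37. The sign for groups 10 and 11 and for groups 12 and 13 thus turned without control replicate 3. Without control replicate 1 they were 0.24, 0.01, 0.23, -0.12 and 1.03. The medians were 0.21, 0.07, 0.16, -0.09 and 0.39 without SMA replicate 1, 0.20, 0.14, 0.17, -0.25 and 0.19 without SMA replicate 2, and 0.13, 0.08, 0.13, -0.11 and 0.77 without SMA replicate 3. With a pseudocount of 0.1 the median of groups 12 and 13 was 1.31. With pan-neuronal scaling the medians were -0.07, -0.15, -0.10, -0.37 and 0.22, beside -0.17 for all genes. Without control replicate 2, 3 Hox genes were lower in SMA at an unadjusted p under 0.05 (5.20% of all genes tested): Hoxa10 at -0.45, Hoxc10 at -0.50 and Hoxd10 at -0.66. They are the 3 genes of group 10, and their adjusted p-values from limma were 0.436, 0.387 and 0.448. Hoxa2 at 0.33 and Hoxa7 at 0.34 were higher (2 genes, with 5.27% of all genes tested). Without control replicate 3, 0 Hox genes were lower (4.16% of all genes tested), and the log2 fold changes of Hoxa10, Hoxc10 and Hoxd10 were 0.13, 0.12 and 0.19. The sign for group 10 therefore changed with that library. In the same fit 5 Hox genes were higher (6.07% of all genes tested): Hoxa3 at 0.42, Hoxa4 at 0.36, Hoxb6 at 0.67, Hoxb8 at 0.60 and Hoxc9 at 0.38. None of these genes passed an adjusted p of 0.05 in either fit.

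Scaling to pan-neuronal levels gave 1 Hox gene lower, Hoxc10 at -0.43 (3.03% of all genes tested), and 0 higher (0.380%). The balance of all genes moved too, from 409 lower and 581 higher to 518 lower and 65 higher. Scaling by the median ratio gave 567 lower and 529 higher, and Hoxa7 was again the only Hox gene counted. In each of these fits 0 Hox genes passed an adjusted p of 0.05.

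The median SD of log2(FPKM + 1) between control libraries was 0.41 for the 32 tested Hox genes and 0.24 for all genes tested, and between SMA libraries it was 0.13 and 0.09. The SD was larger between control than between SMA libraries for 31 of the 32, beside 83.4% of all genes tested. Without control replicate 2 the median SD between the remaining controls was 0.31 for these Hox genes and 0.12 for all genes tested, and 26 of the 32 had the larger SD in controls, beside 57.9% of all genes tested. For 28 of the 32, the SD between controls exceeded the size of the log2 fold change, as it did for 72.8% of all genes tested. Control replicate 3 was the highest library for 19 of the 38 genes, control replicate 1 for 6, control replicate 2 for 0, and SMA replicates 1 to 3 for 4, 4 and 5. Control replicate 2 was the lowest for 22 genes. Among the other 5 libraries, control replicate 1 was the lowest for 14 genes. The matching shares of all genes are not given here, so these highest and lowest counts cannot be read as particular to the Hox genes. Over the genes above 0 in every library, the ratio of highest to lowest had a median of 1.84 for Hox genes and 1.62 for 16785 tested genes, and without control replicate 2 the medians were 1.51 and 1.32.

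Marker lists that moved with the libraries are given beside the Hox values, and the plot of marker lists shows them together. Markers of dorsal root ganglion, of which Prph was the most abundant and 11 of 12 were listed (Drgx was not), summed to 57.9, 36.3 and 82.1 FPKM in the control and 52.1, 59.5 and 54.3 FPKM in the SMA libraries. This sum rested on Prph, which is also in the motor neuron list, and Calca. The other 9 listed ganglion markers, taken after the values were seen, summed to 10.8, 5.90 and 7.69 FPKM in the control and 12.1, 12.2 and 11.2 FPKM in the SMA libraries, and none of the 9 was highest in control replicate 3. Schwann cell markers, 8 of 8 listed and led by Mbp, which oligodendrocytes also make, summed to 784, 782 and 1239 FPKM in the control and 699.6, 733 and 696 FPKM in the SMA libraries. Motor neuron markers, 9 of 9 listed and led by Ret, summed to 99.6, 67.8 and 141 FPKM in the control and 102, 113 and 109 FPKM in the SMA libraries. The 3 sums were highest in control replicate 3, which was also the highest library for 9 of the 12 Hox genes of groups 4 to 7 and 5 of the 6 of groups 10 and 11. The oligodendrocyte lineage sum, also led by Mbp, was 842, 807 and 1230 FPKM in the control and 687, 833 and 860 FPKM in the SMA libraries. It was likewise highest in control replicate 3. Meningeal fibroblast markers, 10 of 10 listed and led by Col1a2, summed to 207, 216 and 185 FPKM in the control and 226, 113 and 73.0 FPKM in the SMA libraries. Cartilage and bone markers, 11 of 11 listed and led by Col1a1, summed to 54.3, 37.4 and 47.8 FPKM in the control and 51.4, 24.6 and 18.9 FPKM in the SMA libraries. Both sums were low in SMA replicates 2 and 3, but without Col1a1, which both lists hold, the 10 other cartilage and bone markers summed to 18.1, 10.9 and 12.9 FPKM in the control and 12.8, 11.9 and 12.9 FPKM in the SMA libraries, a sum also taken after the values were seen. Of these 10, 4 were highest in control replicate 1 and 4 in control replicate 3. In the meningeal list the low values did not rest on Col1a1 alone. Col1a2, at 34.2 and 22.1 FPKM, and Col3a1, at 20.2 and 3.10 FPKM, were lower in SMA replicates 2 and 3 than in the other libraries. The same held for Dcn, at 6.53 and 2.10 FPKM, but not for Zic1, at 32.9 and 36.1 FPKM. The part of each of these tissues in the Hox values was not tested.

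**Figure D5:**
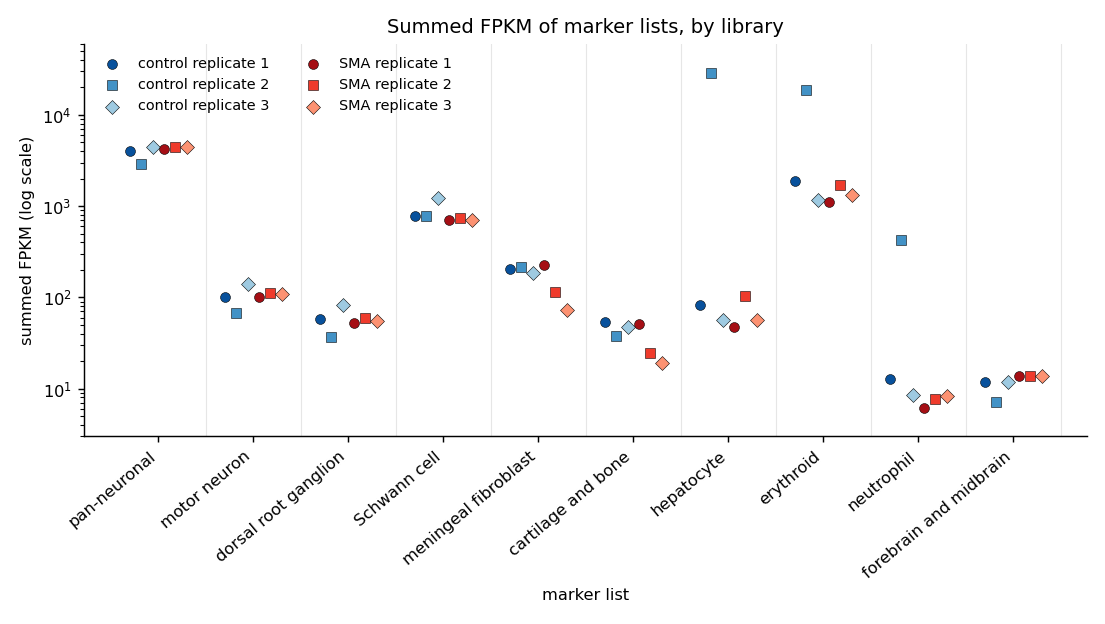
Summed FPKM of 10 marker lists (vertical axis, log scale) by list (horizontal axis), with a point for each library, blue for control and red for SMA. Control replicate 2 is far above the other libraries in the hepatocyte list (28696 FPKM) and lowest in the pan-neuronal list (2890 FPKM), and control replicate 3 is highest in the motor neuron, dorsal root ganglion and Schwann cell lists, the ganglion sum by way of Prph and Calca.

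Blood markers followed control replicate 2. Erythroid markers, 9 of 10 listed and led by Hbb-bs, summed to 1863, 18856 and 1180.0 FPKM in the control and 1115, 1719 and 1333 FPKM in the SMA libraries, and 8 neutrophil markers, led by S100a8, to 12.7, 424 and 8.40 FPKM and 6.04, 7.75 and 8.30 FPKM. Both were highest in control replicate 2, the library with the lowest Hox sum. At an unadjusted p under 0.05, 1 meningeal fibroblast gene (Lum) was lower, 1 dorsal root ganglion gene (Pou4f1) was higher and 2 kidney genes (Pax2 and Pax8, which spinal interneurons also express) were higher, beside 2.39% lower and 3.40% higher of all genes tested. The lists for pan-neuronal, motor neuron, forebrain and midbrain, hindbrain, Schwann cell, skeletal muscle, cartilage and bone, hepatocyte, erythroid, haematopoietic progenitor, neutrophil, skin, gut, oligodendrocyte and astrocyte genes had 0 lower and 0 higher; the hindbrain list holds Hoxb1, Hoxa2 and Hoxb2. Without control replicate 2, pan-neuronal genes had 2 lower and 3 higher, motor neuron, erythroid, neutrophil and astrocyte genes 1 lower each, oligodendrocyte genes 2 lower, hindbrain and meningeal fibroblast genes 1 higher each with 0 lower, kidney genes 0 lower and 2 higher, and dorsal root ganglion genes 1 lower and 1 higher, beside 5.20% lower and 5.27% higher of all genes tested.

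Among Hox partners, 11 genes of the TALE homeodomain class, which bind DNA together with Hox proteins or compete with them, were tested. At an unadjusted p under 0.05, 2 were lower and 2 were higher, beside 2.39% and 3.40% of all genes tested, with a median log2 fold change of 0.26 beside 0.04. Pbx4 was at 5.14, 4.17 and 3.25 FPKM in the control and 6.76, 5.63 and 6.33 FPKM in the SMA libraries, and Pknox2 was at 13.2, 8.15 and 10.99 and 15.6, 14.5 and 15.1 FPKM. For both, each SMA library was above each control, as for 10.3% of all genes tested. Pbx2 and Meis1 also had each SMA library above each control, but did not pass an unadjusted p of 0.05. The repressors Tgif1, at 2.31, 4.64 and 1.79 and 1.59, 1.48 and 0.835 FPKM, and Tgif2, at 3.74, 3.06 and 3.10 and 2.64, 2.35 and 2.40 FPKM, had each SMA library below each control, as for 6.67% of all genes tested. The adjusted p from limma was 0.683 for Pbx4, Pknox2, Tgif1 and Tgif2. Without control replicate 2 the counts were 1 lower and 2 higher, beside 5.20% and 5.27% of all genes tested, and the median was 0.12 beside 0.00.

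Of 23 genes that act upstream of Hox genes in the embryo, such as retinoic acid enzymes and receptors, 21 were listed, 14 were tested and 1 was higher at an unadjusted p under 0.05, beside 3.40% of all genes tested, and 0 were lower, beside 2.39%. That gene was Cyp26b1, which degrades retinoic acid, at 5.97, 4.11 and 2.06 FPKM in the control and 8.80, 6.10 and 8.20 FPKM in the SMA libraries. The SMA libraries were each above the controls, and control replicate 3 was the lowest. Without control replicate 2, 2 of these genes were lower and 1 was higher, beside 5.20% and 5.27%. Aldh1a2, which makes retinoic acid, was at 10.1, 4.97 and 13.7 FPKM in the control and 8.60, 5.59 and 5.94 FPKM in the SMA libraries, and was highest in control replicate 3. Polycomb genes, which keep Hox genes silent outside their domains, had 2 of 30 lower (Rbbp4 and Pcgf5) and 1 higher (Phf1), beside 2.39% and 3.40% of all genes tested, with a median of 0.07. They had 2 lower and 2 higher without control replicate 2, beside 5.20% and 5.27%, and a median of 0.01. Trithorax genes and demethylases, which keep Hox genes active, had 0 of 14 lower and 0 higher, beside 2.39% and 3.40% of all genes tested. Their median was 0.05. Without control replicate 2 they again had 0 and 0, beside 5.20% and 5.27%, with a median of 0.02.

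Of 27 noncoding genes of the Hox clusters, 12 were listed and 6 tested, with 1 higher and 0 lower at an unadjusted p under 0.05, beside 3.40% and 2.39% of all genes tested. Hotairm1, transcribed at the rostral end of the Hoxa cluster, was at 0, 0.0943 and 0.371 FPKM in the control and 0.310, 1.27 and 1.59 FPKM in the SMA libraries. SMA replicates 2 and 3 were the highest, and SMA replicate 1 lay below control replicate 3. Gm53 was the most abundant at 8.88, 8.01 and 12.1 FPKM in the control and 9.13, 8.01 and 8.92 FPKM in the SMA libraries. Hotair, from the caudal part of the Hoxc cluster, was at 1.66, 1.28 and 0.529 FPKM in the control and 1.22, 1.51 and 0.826 FPKM in the SMA libraries. Like Hoxc12 and Hoxc13, it was lowest in control replicate 3, although above 0.

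Genes that depend on Hox proteins in motor columns and pools numbered 23, of which 22 were tested, with 0 lower and 1 higher, beside 2.39% and 3.40% of all genes tested, and a median of 0.02. Without control replicate 2, 1 was lower and 1 higher, beside 5.20% and 5.27%, and the median was 0.00. Foxp1, the Hox partner that defines limb motor neurons, was at 12.6, 17.9 and 19.5 FPKM in the control and 17.0, 17.4 and 13.2 FPKM in the SMA libraries. Nos1, which marks preganglionic neurons of the thoracic cord among other cells, was at 5.04, 2.95 and 3.89 FPKM in the control and 6.42, 6.09 and 6.39 FPKM in the SMA libraries, and was the gene counted as higher (log2 fold change 0.58, standard error 0.17, limma adjusted p = 0.683).

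The deposited files give many neighbouring Hox genes a common locus that is wider than their own annotated coordinates. By these deposited loci, 21 of the 38 genes overlap another listed gene, 20 of them another Hox gene, and 17 overlap none. With the index limited to genes that overlap no other listed gene by these loci, 8 of groups 10 to 13 and 3 of groups 4 to 7, it was -1.53, -1.91 and -2.79 in the control and -2.08, -1.87 and -2.51 in the SMA libraries, highest in control replicate 1 and lowest in control replicate 3. How reads were divided between overlapping genes was not tested.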

How the data were processed

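The authors deposited FPKM, made with HISAT2 alignment and Cufflinks on build mm10; versions are not given in the sources used here. A gene that a library does not list was given 0. On the log2(FPKM + 1) scale, genes whose mean reached 0.5 FPKM were fitted with limma 3.58.1 (trend, two-sided) in R 4.3.3, with p-values adjusted by Benjamini-Hochberg over all genes tested. Other steps used Python 3.11.15. The procedure was tested on simulated data. Members and lists were chosen with earlier results of these data known. Values by library are given for the most abundant Hox gene of each paralogue group, Hox genes with groups that do not overlap or an unadjusted p under 0.05, and those at 0 in some libraries. Foxp1, Aldh1a2, Chat and Hotair were chosen after their values were seen. Alternatives were a pseudocount of 0.1, other minimum means, other scalings, a replicate block and leaving out each library. Homeobox stretches are from GENCODE M21 and promoters from RefSeq.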

Additional observations from a re-analysis of the deposited data

How the results depend on the processing

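The count of Hox genes past an adjusted p of 0.05 in limma was 0 under all 13 alternatives. With scaling to pan-neuronal levels, 1 Hox gene was lower and 0 were higher at an unadjusted p under 0.05, against 0 and 1 in the fit of all 6 libraries, and the log2 fold changes of Hoxa3, Hoxa4 and Hoxc9 were -0.066, -0.024 and -0.12, beside a median of -0.17 over all genes. Leaving out each library in turn gave 0 to 3 lower and 0 to 5 higher Hox genes, and a median log2 fold change of the tested Hox genes that was lowest (-0.03) without control replicate 2 and highest (0.25) without control replicate 3. It gave log2 fold changes from -0.052 to 0.42 for Hoxa3, -0.45 to 0.13 for Hoxa10, -0.040 to 0.38 for Hoxc9, -0.50 to 0.12 for Hoxc10 and -0.66 to 0.19 for Hoxd10. The cause was not tested. The caudal-minus-rostral difference ran from -0.40 to 0.06 with each library left out and from -0.14 to 0.13 under the other versions. With a minimum mean of 1 FPKM, no minimum, a pseudocount of 0.1, quantile normalization or median ratio scaling, 0 Hox genes were lower and 1 was higher. All genes had 357 lower and 521 higher of 15417 with the minimum of 1 FPKM and 491 and 882 of 25576 with no minimum. Of 17088 genes, the pseudocount gave 468 lower and 581 higher, quantile normalization 337 and 639, and median ratio scaling 567 and 529.

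With replicate number as a block, 0 Hox genes were lower and 1 was higher at an unadjusted p under 0.05, 0 passed an adjusted p of 0.05 and the median was 0.14. The labels do not say whether the numbers pair the samples. Across genes, deviations from the group mean in control and SMA libraries of the same number correlated at -0.037, 0.016 and 0.077. These values cannot decide whether the samples are paired, because the control mean includes control replicate 2, which stood apart.

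Because read counts were not available, the absolute depth that limits low genes is unknown. The estimated depth relative to SMA replicate 1 was 1.00 to 1.16.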
